A study of Mus musculus with 8 samples.

Results

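The 8 CDK inhibitor genes of the mouse (Cdkn1a, Cdkn1b, Cdkn1c, Cdkn2a, Cdkn2b, Cdkn2c, Cdkn2d and Cdkn3) were followed in bulk RNA-seq of sorted bone marrow cells, chosen by symbol from 46113 gene IDs, with reads of every annotation row of a gene ID summed. Haematopoietic stem cells (HSC: CD150+ CD34- Sca1+ c-Kit+ Lineage-) were compared with haematopoietic progenitor cells (HPC), which differ in the gate only by being CD34+. Both came from the marrow of C57BL/6 mice aged 8-10 weeks, carried no transgene or treatment that the labels name, and gave 4 libraries each. The protocol, written for HSC only, describes RNA of a small number of sorted cells, amplified as cDNA before tagmentation. The groups come from the sample titles, since the source label speaks of stem cells for all 8. Whether a group's libraries stand for separate animals is not stated, and the p-values then cover only the spread among these libraries, which may be technical. Each library is bulk RNA of pooled cells, so a lower level of a gene per cell and fewer cells expressing it cannot be told apart. All levels are relative to the library total, so a difference in total RNA per cell would not show.

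CDK inhibitors hold back the cyclin-dependent kinases that drive the cell cycle. The Cip/Kip proteins p21 (Cdkn1a), p27 (Cdkn1b) and p57 (Cdkn1c) bind assembled cyclin and CDK complexes, whereas the Ink4 proteins p16 (Cdkn2a), p15 (Cdkn2b), p18 (Cdkn2c) and p19 (Cdkn2d) bind CDK4 and CDK6 and keep them from D-type cyclins. Cdkn3 is different in kind: it encodes a phosphatase that removes the activating phosphate from CDK2. In mouse marrow, p57 is known for keeping stem cells out of cycle, and p18 for limiting their self-renewal.

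Members of the family differed between the populations in both directions. Cdkn1c was 14.5-fold higher in HSC, Cdkn1a was 4.82-fold lower, Cdkn3 was 2.93-fold lower and Cdkn2c was 2.57-fold lower, while Cdkn1b and Cdkn2d made no call and Cdkn2a and Cdkn2b gave almost no reads. Of the 8 genes, 6 passed the filter on low exon counts and were tested. With edgeR's quasi-likelihood test and Benjamini-Hochberg adjustment over 12751 genes (threshold 0.05), 1 was called higher in HSC, against 19.6% of all genes tested, and 3 were called lower, against 17.6%. The median log2 change of all genes tested was 0.0031.

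The libraries held 16291733 to 20564901 exon reads and 5385600 to 6571124 intron reads, with log2 CPM (read counts scaled to library size by edgeR's TMM) correlating at 0.979 to 0.985 within a group and at 0.902 to 0.919 between groups. Cd34, part of the gate, stood at 120 ± 15.3 CPM in HSC and 1276 ± 55.9 in HPC (mean ± SD, n = 4 each, as in all later values of this form), and Slamf1, which encodes CD150, at 37.6 ± 6.02 and 3.14 ± 0.736 although both gates were CD150+. Kit made no call, Ly6a and Procr were higher in HSC, and Flt3 and Cd48 were lower. Among markers of other cells, the summed T cell markers (3 of 3 called higher in HSC) ranged over 27.9 to 40.0 CPM in HSC and 5.50 to 10.6 in HPC, red cell markers (3 of 6 higher) over 181 to 453 and 40.8 to 159, and B cell markers (2 of 3 higher) over 10.5 to 20.6 and 3.83 to 6.52. Endothelial markers (2 higher and 1 lower of 4) summed to 68.8 to 89.8 CPM in HSC and 136 to 145 in HPC, stromal markers (1 higher and 1 lower of 3 tested out of 5) to 14.0 to 30.3 and 70.1 to 87.1, and neutrophil markers (0 of 3 tested out of 5 called by edgeR) to 6.38 to 9.15 and 4.40 to 16.2. No marker was at 0 in all 8 libraries. The most abundant members were Cd3e at 13.4 ± 2.05 and 3.82 ± 0.689 CPM, Hba-a1 at 105 ± 56.2 and 26.9 ± 21.9, Cd79a at 8.20 ± 1.53 and 2.34 ± 0.521, Pecam1 at 46.8 ± 7.76 and 119 ± 7.15, Pdgfrb at 5.43 ± 1.20 and 73.7 ± 7.21, and S100a8 at 4.96 ± 1.41 and 5.86 ± 4.54 in HSC and HPC. In HPC, Pecam1 and Pdgfrb made up most of the endothelial and stromal sums, and they were the genes called lower in HSC. Called higher in HSC were the endothelial Emcn (29.4 ± 2.21 and 20.8 ± 4.08 CPM) and Kdr (5.15 ± 2.77 and 0.699 ± 0.230). The stromal Cxcl12 was also called higher (10.0 ± 4.18 and 2.53 ± 2.53). The other markers of both lists made no call or were not tested. The part of these other cells in the differences below was not tested.

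The DNA in front of the 3 genes that were lower in HSC is shown because the motifs before Cdkn3 differ from those before Cdkn2c and Cdkn1a. RefSeq (GRCm38.p6, the same coordinates as mm10) gave windows of 250 bases before and 50 after a start for 7 of the 8 genes, 10 windows in all. The stretches below come from those windows, written 5′ to 3′ on the gene's strand, with every match to a searched motif in capitals: CHR (TTTGAA), the element of genes expressed late in the cycle, the CCAAT box (CCAAT) and the SP site (GGGCGG), each on either strand.
Cdkn3, chr14:46760291-46760464, + strand: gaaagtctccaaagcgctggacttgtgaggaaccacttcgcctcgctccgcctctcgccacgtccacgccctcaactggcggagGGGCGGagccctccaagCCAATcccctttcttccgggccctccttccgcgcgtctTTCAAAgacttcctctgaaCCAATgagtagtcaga
Cdkn2c, chr4:109666787-109666816, - strand: cagggcgttGGGCGGggcgtGGGCGGggcc
Cdkn1a, chr17:29093519-29093768, + strand: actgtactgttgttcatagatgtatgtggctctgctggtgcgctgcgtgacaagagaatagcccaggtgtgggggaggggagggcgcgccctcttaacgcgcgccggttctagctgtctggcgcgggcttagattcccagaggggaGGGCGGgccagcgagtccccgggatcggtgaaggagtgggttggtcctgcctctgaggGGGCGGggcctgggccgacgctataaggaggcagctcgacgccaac
The Cdkn3 stretch, cut at the gene's first annotated base, holds the CHR as its reverse complement 111 bases before the RefSeq start, between CCAAT boxes 149 and 92 bases before it. With matches 34 bases before the start and just past it, the Cdkn3 window had 4 CCAAT boxes, and 1.06% of all 32851 windows of that length held at least 4. CHR letters occurred in 17.9% of all windows, CCAAT in 37.4% and the SP letters in 35.7%. The Cdkn2c stretch was kept to 30 bases because GENCODE vM21 places an exon over this window, and it holds SP sites 51 and 40 bases before the start. Outside the stretch, SP letters also lay 95 bases before this start and past it, and another Cdkn2c window held CCAAT just past its start. The Cdkn1a stretch lies before the second of its RefSeq starts and holds SP sites 104 and 46 bases before it. The 250 bases before the first Cdkn1a start held no match. Neither E2F sequence searched (TTTGGCGC, in 0.514% of windows, and TTTCGCGC, in 0.323%) occurred in a window of any of the 7 genes, and a match to TATAAA was counted in 13.6% of all windows. CHR letters also occurred 161 bases before the start of Cdkn2b. The SP letters and CCAAT were not particular to the lower genes. Cdkn1b, without a call, held SP letters 61 bases before its start and CCAAT 161 and 35 bases before it. Cdkn2d, also without a call, held SP letters 118, 106 and 38 bases before its start and CCAAT 220 bases before it. These matches describe letters and not binding.

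Cdkn1c (p57; gene ID 12577, mm10 chr7:143458339-143461073, - strand) was the most abundant of the family in HSC per length and the lowest of the 6 tested genes in HPC. In HSC replicates 1 to 4 its exon reads came to 139, 126, 129 and 122 CPM, and in HPC replicates 1 to 4 to 10.5, 6.71, 10.4 and 7.90 CPM. The groups were far apart, and the spread among the HSC libraries was small. The log2 change was 3.86 ± 0.15 (SE; edgeR quasi-likelihood, adjusted p = 2.4e-10), and 219 of the genes tested had a larger positive change. All of its 10271 exon reads were counted as unique. The antisense model Gm44732 of GENCODE vM21 overlaps an exon of Cdkn1c, and its reads could not be told apart if strand was not used.

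Introns repeated that order. Intron reads come mostly from RNA not yet spliced, and for Cdkn1c they gave 9.17, 7.46, 10.7 and 17.7 intron CPM (scaled to the library's intron reads) in HSC and 1.04, 0.479, 0.157 and 0.383 in HPC. Again no HPC library reached any HSC library. The HPC values rest on only 6, 3, 1 and 2 reads, and those of HSC on 54, 49, 70 and 92. The intron log2 change was 4.41 ± 0.57 (edgeR quasi-likelihood, adjusted p = 7.7e-05).

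Cdkn1a (p21, the classical target of p53; gene ID 12575, chr17:29090979-29100722, + strand) moved the opposite way. Its exon level was 6.80, 3.14, 3.07 and 3.11 CPM in HSC replicates 1 to 4 and 26.2, 17.8, 15.5 and 18.2 CPM in HPC replicates 1 to 4. HSC replicate 1 was above the other HSC libraries but below every HPC library. The log2 change was -2.28 ± 0.28 (edgeR quasi-likelihood, adjusted p = 1.7e-05) and -2.64 without HSC replicate 1. Only 41.0% of its 1755 exon reads were counted as unique, and the gene has a second row on an alternate locus of the assembly. An exon of AC167363.2, a GENCODE vM21 model of the opposite strand that the deposited tables do not list over the gene, overlaps an exon of Cdkn1a, and reads of the pair could not be separated if strand was not used.

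On introns Cdkn1a gave 9.17, 6.24, 3.97 and 10.4 intron CPM in HSC and 40.9, 33.1, 10.3 and 25.6 in HPC. The groups met here, since HSC replicate 4 and HPC replicate 3 were at nearly the same level. The intron change was -1.89 ± 0.40 on the log2 scale (edgeR quasi-likelihood, adjusted p = 0.0042).

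Cdkn1b (p27; gene ID 12576, chr6:134920401-134925525, + strand) ranged in exon reads over 29.0, 29.3, 25.8 and 36.0 CPM in HSC and 22.4, 38.6, 28.0 and 23.8 in HPC. The highest and the lowest library were both HPC. The log2 change was 0.09 ± 0.18, with a 95% interval of -0.26 to 0.44 and an adjusted p of 0.73 (edgeR quasi-likelihood). Its intron level was 3.57, 6.69, 3.06 and 2.12 intron CPM in HSC and 10.2, 4.15, 5.32 and 11.1 in HPC, with a log2 change of -0.98 ± 0.48 that missed the threshold (adjusted p = 0.18, edgeR quasi-likelihood).

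**Figure D1:**
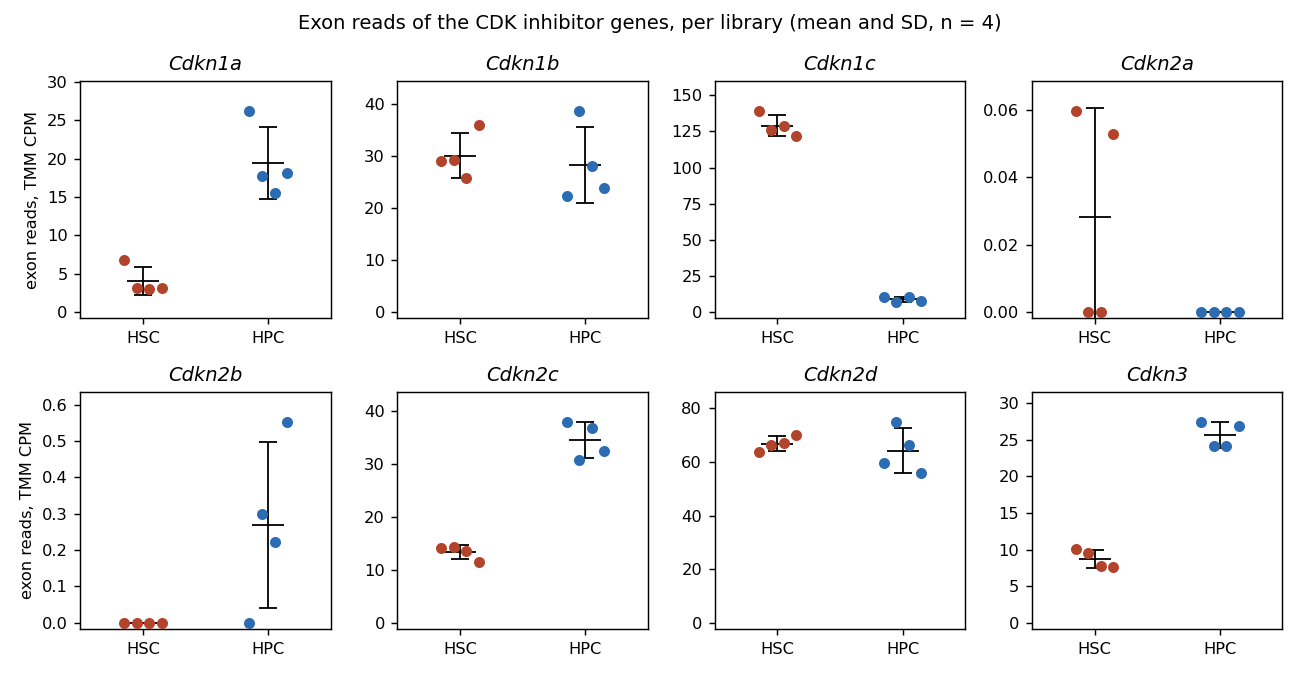
Exon reads of the CDK inhibitor genes in TMM-scaled CPM, 1 panel per gene with a linear axis, 1 point per library (4 HSC and 4 HPC), with the mean and SD. Cdkn1c runs from 122 to 139 in HSC and from 6.71 to 10.5 in HPC, Cdkn1a, Cdkn2c and Cdkn3 lie higher in every HPC library, and Cdkn1b and Cdkn2d overlap.

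Cdkn2c (p18; gene ID 12580, chr4:109660876-109666756, - strand) was the Ink4 gene called, of the Ink4 pair (with Cdkn2d) that passed the filter on low counts. Exon reads stood at 14.2, 14.4, 13.6 and 11.5 CPM in HSC and at 38.0, 30.8, 36.9 and 32.5 CPM in HPC. Every HPC library was above every HSC library, and the log2 change was -1.36 ± 0.14 (edgeR quasi-likelihood, adjusted p = 2.7e-06). Its introns were read thinly, at 1.70, 3.50, 2.29 and 1.54 intron CPM in HSC and 12.8, 5.43, 6.73 and 4.97 in HPC. The groups stayed apart there too, with a log2 change of -1.71 ± 0.48 (edgeR quasi-likelihood, adjusted p = 0.022). That intron call ended without HPC replicate 1 (-1.34, adjusted p = 0.097) and without HSC replicate 1 (-1.60, adjusted p = 0.058, edgeR in each case).

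Cdkn2d (p19; gene ID 12581, chr9:21288459-21291402, - strand) made no call, at 63.8, 66.4, 67.0 and 70.2 CPM in HSC and 59.8, 75.0, 66.4 and 55.7 CPM in HPC. The HSC libraries lay within the range of the HPC libraries. Its log2 change was 0.06 ± 0.11, with a 95% interval of -0.16 to 0.28 (edgeR quasi-likelihood, adjusted p = 0.72). On introns it gave 9.0, 3.80, 2.90 and 3.85 intron CPM in HSC and 4.33, 2.72, 2.66 and 5.93 in HPC, overlapping, and the log2 change was 0.33 ± 0.50 (adjusted p = 0.72, edgeR quasi-likelihood).

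The Cdkn2a and Cdkn2b genes lie 11670 bases apart on chr4 and were close to silent. Cdkn2a (p16 and, from another frame, p19Arf; gene ID 12578, chr4:89274473-89294619, - strand) had 1, 0, 0 and 1 exon reads in HSC and 0 in each HPC library. Cdkn2b (gene ID 12579, chr4:89306289-89311032, - strand) had 0 exon reads in each HSC library and 0, 6, 4 and 10 in HPC. The groups overlapped, since HPC replicate 1 also had 0, and no fold is given.

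Of those 20 Cdkn2b reads 4 were unique and 4 crossed an exon junction, and a model of the opposite strand, Gm12610, overlaps the gene. Without the count filter edgeR's adjusted p for Cdkn2b was 0.034 and DESeq2's was 0.076. Intron reads of Cdkn2b were 0, 0, 2 and 0 in HSC and 0, 4, 19 and 0 in HPC, and those of Cdkn2a were 8, 6, 4 and 0 and 0, 0, 3 and 3. The limit that a count of 0 allows, 3 reads, came to 0.146 to 0.184 CPM per library, for counting error only, and a library's 0 does not separate levels below it from none.

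Cdkn3 (gene ID 72391, chr14:46760465-46771530, + strand) stood at 10.0, 9.57, 7.75 and 7.65 CPM in HSC and at 27.4, 24.1, 24.1 and 26.8 CPM in HPC. Each group was tight and the groups did not meet. The log2 change was -1.55 ± 0.16 (edgeR quasi-likelihood, adjusted p = 2.4e-06). Reads that crossed an exon junction made up 89.9% of its 2574 exon reads, as against 1.72% for Cdkn1b.

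The intron reads of Cdkn3 stood at 8.15, 5.02, 5.96 and 4.43 intron CPM in HSC and 49.7, 31.0, 35.8 and 27.7 in HPC. The HPC libraries were all above the HSC libraries. The intron log2 change was -2.61 ± 0.27 (edgeR quasi-likelihood, adjusted p = 1.3e-05).

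On intron reads, 6 of the 8 genes were tested among 15142, and 1 (Cdkn1c) was called higher in HSC, against 10.8% of all, and 3 (Cdkn1a, Cdkn2c and Cdkn3) lower, against 9.43%. These were the same 4 genes as on exon reads, in the same directions, and the libraries are the same. Whether exon and intron reads changed by different amounts was tested as the interaction of read kind and group. In that edgeR test 0 of 6 genes were called, against 1.76% of all 11449 genes, and 1, Cdkn3, had an unadjusted p under 0.05, as had 1347 of all genes. For Cdkn3 the exon log2 change less the intron log2 change was 1.02 ± 0.30 (95% interval 0.44 to 1.60, unadjusted p = 0.0038, adjusted p = 0.12 by edgeR's quasi-likelihood test).

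**Figure D2:**
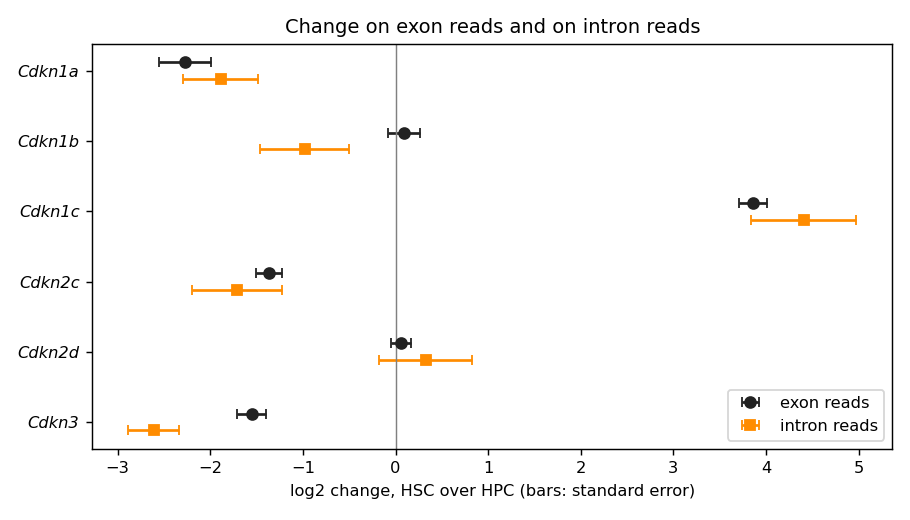
Log2 change, HSC over HPC (horizontal axis), on exon reads (circles) and intron reads (squares) for the 6 CDK inhibitor genes tested, with bars for the standard error. Cdkn1c lies to the right on both, Cdkn1a, Cdkn2c and Cdkn3 to the left on both, and Cdkn3 lies at -1.55 on exons and -2.61 on introns.

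Levels of different genes were compared per length, from the deposited TPM (transcript reads per length, scaled to a fixed total). In HSC the order ran from Cdkn1c at 130 ± 12.7 TPM over Cdkn2d at 92.5 ± 6.30, Cdkn1b at 25.0 ± 1.88, Cdkn3 at 19.8 ± 3.09 and Cdkn2c at 12.1 ± 1.84 to Cdkn1a at 3.97 ± 1.75, and no neighbours in that order overlapped. Cdkn2a and Cdkn2b, last in both groups, overlapped. In HPC Cdkn2d led at 85.6 ± 14.3 TPM, followed by Cdkn3 at 55.6 ± 3.62, Cdkn2c at 29.7 ± 4.03, Cdkn1b at 22.7 ± 6.43, Cdkn1a at 18.5 ± 4.71 and Cdkn1c at 8.61 ± 2.10. The libraries of Cdkn1b overlapped there with those of Cdkn2c and with those of Cdkn1a.

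Within the Cip/Kip genes the make-up differed. Cdkn1c held 81.7 ± 2.22% of their summed TPM in HSC and 17.4 ± 3.97% in HPC, Cdkn1b 15.9 ± 2.47% and 45.5 ± 9.58%, and Cdkn1a 2.47 ± 0.975% and 37.1 ± 7.56%. Their sum was 159 ± 11.7 TPM in HSC and 49.8 ± 6.81 in HPC, without overlap. The Ink4 sum was 105 ± 7.42 and 116 ± 15.5 TPM, with overlap, and Cdkn2c made up 11.5 ± 1.37% of it in HSC and 25.9 ± 3.52% in HPC, the rest being almost all Cdkn2d. A share moves when any gene in the sum moves, so these are descriptions with no test.

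**Figure D3:**
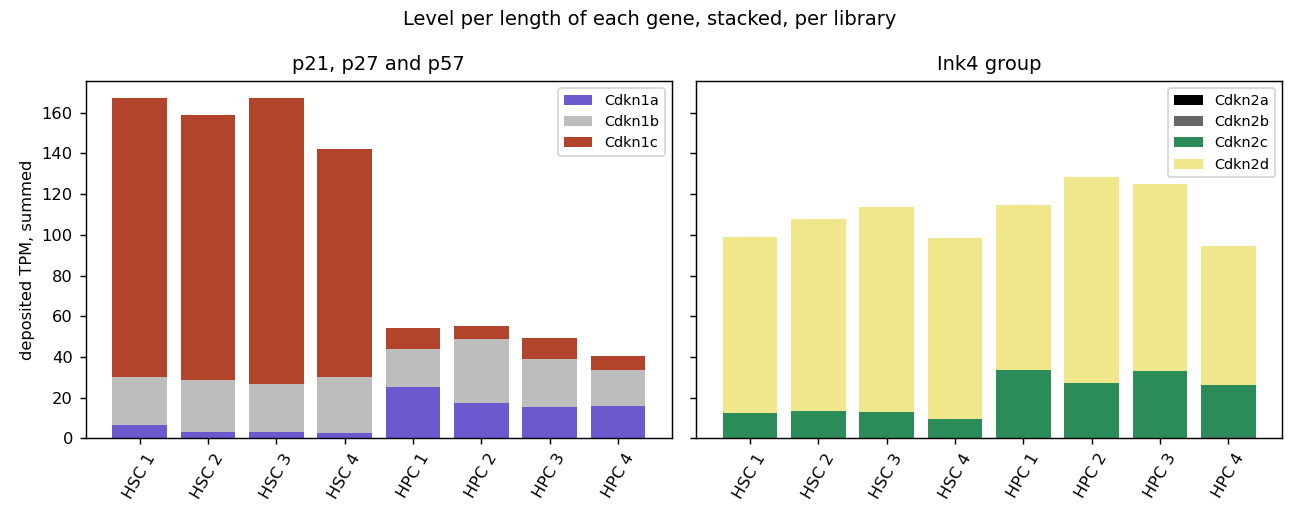
Deposited TPM of the CDK inhibitor genes per library, stacked by gene for the Cip/Kip genes and the Ink4 genes, 4 HSC and 4 HPC libraries. Cdkn1c fills most of the Cip/Kip bars in HSC, where they sum to 142 to 167, and a small share in HPC, where they sum to 40.4 to 55.3.

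The partners of the inhibitors were mostly lower in HSC. Of 11 cyclins and CDKs, all tested, 7 were lower, 3 were higher and 1, Ccnd1, made no call, with a median log2 change of -0.56. Over all genes tested on exon reads 17.6% were lower and 19.6% higher. Cdk6, the kinase that Ink4 proteins bind, fell to 442 ± 56.9 CPM in HSC from 1246 ± 161 in HPC (log2 change -1.49, adjusted p = 2.6e-07, edgeR quasi-likelihood), and Ccna2 and Cdk1 were lower by log2 changes of -1.07 and -0.99. Ccne1, which encodes a cyclin that activates CDK2 at the start of S phase, ran against the list. It stood at 52.4 ± 10.1 TPM in HSC and 15.8 ± 1.36 in HPC (log2 change of exon reads 1.68, adjusted p = 2.1e-06, edgeR). The D-type cyclins Ccnd2 (0.63) and Ccnd3 (0.26) were higher too. The other cyclin E gene, Ccne2, was lower, at 17.95 ± 2.44 TPM in HSC and 32.7 ± 6.55 in HPC (-0.92, adjusted p = 0.00025, edgeR). Per length, Cdk4 stood at 584 ± 31.2 TPM in HSC and 828 ± 47.4 in HPC and Cdk6 at 77.2 ± 9.0 and 209 ± 26.5.

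Downstream of the kinases, 7 of 13 pocket protein, E2F and DP genes were lower in HSC and 3 were higher (median log2 change -0.41), against 17.6% and 19.6% of all genes tested. Rbl1, encoding p107, was at -0.93, Tfdp1, an E2F partner, at -0.57 and the repressor E2f7 at -1.57, while E2f5 (0.99), E2f6 (0.38) and E2f4 (0.42) were higher. All 24 genes of the G2 and M phases were lower, with a median log2 change of -1.35, among them Ect2 (-1.94), Nusap1 (-1.57) and Ccnb2 (-1.29). Cdkn3, at -1.55, and Cdkn2c, at -1.36, lay among those values. In RefSeq windows of 20 of these genes, 18 of 22 windows held the CHR letters printed above for Cdkn3, or 81.8%, against 17.9% of all windows. CCAAT and the SP letters each occurred in 19 of the 22, or 86.4%, against 37.4% and 35.7%, and 4 of the 22 held at least 4 CCAAT boxes.

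**Figure D4:**
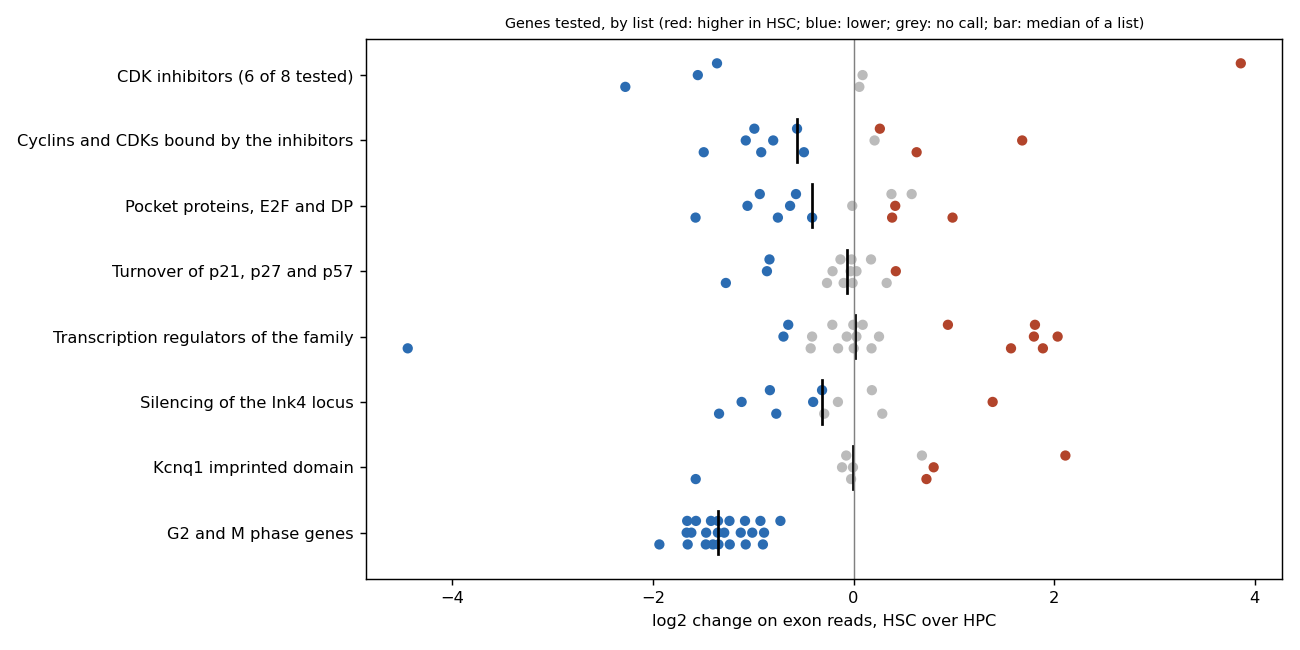
Log2 change on exon reads, HSC over HPC, for the CDK inhibitor genes and for the 7 pathway gene lists (cell type markers are not drawn), 1 point per gene tested; red and blue mark calls in either direction, grey no call and the bar the median of a list. All 24 G2 and M phase genes are blue, and the other 6 pathway lists hold calls in both directions.

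Regulators of the family were mixed. HSC had 6 of 20 transcription regulators higher and 3 lower, and 11 made no call (median log2 change 0.015), against 19.6% and 17.6% of all genes tested. Mycn (1.57), Gfi1b (1.81) and Foxo1 (0.94), of the FoxO factors that induce p27, were higher, whereas Cebpa (-4.44), Myc (-0.70), which represses Cdkn1a, and Gfi1 (-0.65) were lower. The other FoxO genes listed, Foxo3 (0.0019, adjusted p = 0.99) and Foxo4 (0.18, adjusted p = 0.55, edgeR in each case), made no call. Neither did Trp53, encoding p53 (-0.15, adjusted p = 0.26, edgeR). Of 14 genes for the turnover of p21, p27 and p57, 10 made no call, 1, Cul4a (0.42), was higher, and 3 were lower: Dtl (-1.27), whose product directs p21 to destruction, and Skp2 (-0.86) and Cks1b (-0.84), which do so for p27 (median -0.064). Of all genes tested 17.6% were lower and 19.6% higher, so the share of lower genes in this list was near that of all genes.

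The silencing genes of the Ink4 locus were called lower in 6 of 11 cases, higher in 1 and without a call in 4 (median log2 change -0.31). The shares over all genes tested were 17.6% lower and 19.6% higher. Cbx7, a Polycomb protein that represses Cdkn2a, stood at 78.6 ± 8.17 CPM in HSC and 30.0 ± 2.29 in HPC (1.39, adjusted p = 3.7e-07, edgeR), whereas Dnmt1 (-1.12), Ezh2 (-0.83) and Hmga2 (-1.34) were lower and Bmi1 made no call (0.29, adjusted p = 0.071, edgeR). Cdkn2a and Cdkn2b themselves did not pass the filter on low counts.

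Cdkn1c lies in an imprinted domain of chr7, where the RNA Kcnq1ot1 silences neighbouring genes on the paternal chromosome. Of the 11 genes of that domain 9 were tested, and HSC had 3 higher and 1 lower (median log2 change -0.0056), against 19.6% and 17.6% of all genes tested. Phlda2, 40472 bases from Cdkn1c, was at 19.5 ± 2.87 CPM in HSC and 4.51 ± 0.419 in HPC (2.11, adjusted p = 5.8e-07, edgeR), Slc22a18, 12653 bases away, at 14.2 ± 1.16 and 8.15 ± 1.36 (0.80, adjusted p = 0.0034), and Cd81 also rose (0.73). Osbpl5 was the lower gene (-1.57). Kcnq1ot1 is annotated without exons and had 0 reads of its own, and it lies inside Kcnq1 on the other strand. Kcnq1, with 27 annotated exons, had 0 exon reads in all 8 libraries and was not tested on them. Its intron reads, which could hold reads from Kcnq1ot1 if strand was not used, were 556 ± 65.3 and 482 ± 60.3 intron CPM (log2 change 0.21, adjusted p = 0.33, edgeR). Which of these genes gave the intron reads was not tested.

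Elsewhere, some genes within 50 kb of a CDK inhibitor were called too, where 17.6% of all genes tested were lower and 19.6% higher. Rab44, 13406 bases from Cdkn1a, was at 4.16 ± 1.94 CPM in HSC and 59.2 ± 14.1 in HPC (-3.83, adjusted p = 1.4e-07, edgeR), and Srsf3, 47607 bases away, changed by -0.52. Beside Cdkn3, Gmfb changed by -0.30 (adjusted p = 0.044, edgeR) and Cnih1 made no call (-0.26). Around Cdkn2d, Slc44a2 was lower (-0.47), and Kri1 (0.045), 490 bases away, Atg4d (0.25), Keap1 (0.20) and Ap1m2 (-0.38) made no call. Gpr19 beside Cdkn1b (-0.099) and Faf1 beside Cdkn2c (-0.14) made none either, and S1pr5 near Cdkn2d was too low to test.

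Genes whose log2 CPM over the 8 libraries was most like a CDK inhibitor's were ranked by Pearson's r among 10207 genes of at least 5 CPM. Nearest to Cdkn1c were Igf1, Abcg3 and Rhag, all at 0.998, to Cdkn2c Wee1 (0.996), which encodes a kinase that inhibits CDK1, Rfc1 and Elovl5 (both 0.995), to Cdkn3 Milr1 and Calhm2 (both 0.996) and Mtfr2 (0.995), and to Cdkn1a Tmem180 (0.986), Parpbp and Lig1 (both 0.983). For the genes without a call the best values were lower: Apba3 (0.953), Acot1 (0.943) and Adat2 (0.911) for Cdkn1b and Nat8f1 (0.939), Pwwp2b (0.903) and Kri1 (0.897) for Cdkn2d. Among the inhibitors, Cdkn2c and Cdkn3 stood at 0.987, Cdkn1a and Cdkn3 at 0.973, Cdkn1b and Cdkn2d at 0.874 and Cdkn1c and Cdkn3 at -0.976. The 8 points are 2 groups of 4 libraries, so a gene that differs between the groups lies toward 1 or -1 by that alone, and these values are descriptions.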

How the data were processed

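The deposited tables gave, per the file headers, read counts of exons, introns and exon junctions per gene, with TPM and RPKM that the authors computed from them, for 4 HSC and 4 HPC libraries. The build was mm10, per the submitters' processing notes, and the aligner, the counter and whether strand was used were not given in the sources used here. Unique reads made up 81.5 to 85.5% of exon reads. Counts of total exon and intron reads were summed per gene ID, as 1931 of 46113 IDs fill several rows. RPKM was not tested, and the deposited TPM was used for levels between genes.

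Exon and intron counts were each fitted over all genes with edgeR 4.0.16 (R 4.3.3), with filterByExpr defaults, TMM and quasi-likelihood tests, and their interaction with library as a block. The scripts were also run on simulated counts with known changes. The alternatives used DESeq2 1.42.0 and limma 3.58.1, another scaling, other filters and thresholds, junction reads only (chosen after seeing the data), and each library left out. No pair of replicates agreed within sampling noise. The members and the gene lists were chosen with earlier results of these data known. Named were all 8 genes, up to 3 called genes per direction in each list with the smallest adjusted p and at least 5 CPM, the most abundant marker of each other cell type, genes with exon reads within 50 kb, and the 3 genes most like each tested gene. Cdk4, Ccnd1, Ccne2, Trp53, Foxo3, Foxo4, Bmi1, Kit, Kdr, Kcnq1 and Kcnq1ot1 were named after their values were seen.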

Additional observations from a re-analysis of the deposited data

Results flagged for a closer look

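Among 30 groups of 4 libraries checked, 3 held a library far from the other 3 by Dixon's test, and chance gives about 1 in 20. Cdkn1a exon reads in HSC replicate 1 were at 6.80 CPM, against 3.07 to 3.14 in the other HSC libraries, and the call held without that library (log2 change -2.64). Cdkn2d intron reads in HSC replicate 1 were at 9.0 intron CPM, against 2.90 to 3.85, and without it the intron log2 change was -0.16 in place of 0.33, with no call either way. Cdkn2b intron reads in HSC replicate 3 were at 0.306 intron CPM, which is 2 reads, against 0 in the others. With 0 in the others any count is flagged, so the rate of 1 in 20 does not apply to this group.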

How the results depend on the processing

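The exon calls of Cdkn1a, Cdkn1c, Cdkn2c and Cdkn3 held in all 18 alternatives run, with log2 changes of -2.64 to -2.11, 3.74 to 3.95, -1.47 to -1.28 and -1.62 to -1.47. With no count filter 5 members were called on exon reads, Cdkn2b being added. Genes without a call changed sign between settings. Cdkn1b on exon reads ranged from -0.015 to 0.28 with a library left out. On junction reads alone Cdkn1b was at -0.43 ± 0.58 (SE), from only 75 such reads over all 8 libraries. Cdkn2d ranged from -0.011 to 0.14 on exon reads with a library left out and was -0.022 on junction reads. On introns Cdkn2d ranged from -0.16 to 0.59. In the exon to intron ratio Cdkn2d ranged from -0.57 to 0.19 and Cdkn1c was 0.043 with limma. Requiring 50 reads in 4 libraries left 2 members tested and called on introns, and a threshold of 0.01 left 1864 genes called on introns in place of 3056. Leaving out a library gave 3 to 4 members called on introns. The ratio called 201 genes by edgeR, 119 by limma, 32 by limma with the replicate block, and 120 to 158 with a library left out. Replicate numbers are shared between groups, and whether they pair libraries could not be settled. Same-numbered libraries correlated at -0.14 to 0.22 in their deviations from the group means, and differently numbered ones at -0.29 to 0.12. With the replicate block 4 members and 5036 genes were called on exons and 3 members and 2818 genes on introns, where Cdkn2c missed the threshold (-1.67, adjusted p = 0.055). In all, 267 member values kept direction and call, 9 changed sign and 4 lost the call.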
